A study of Mus musculus with 6 samples.

Results

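Clustered histone genes encode the core and linker histones that wrap DNA into chromatin, and they lie side by side in a few gene clusters. They are known for being transcribed when DNA is copied, so that their messenger RNA marks dividing cells. Most of their messages carry no poly(A) tail and end in a short stem-loop bound by the protein Slbp. H2A and H2B form a dimer within the nucleosome and H4 pairs with H3, while H1 binds the linker DNA. The genes described here are the rows of the authors' deposited table whose symbol begins Hist1h, Hist2h, Hist3h or Hist4h, which are 9 of 23170 genes. By class they are 4 H2A genes, 3 H2B genes and 2 H4 genes, with no H1 and no H3 gene. All 9 carry a Hist1 name and lie on chromosome 13, and none is of Hist2, Hist3 or Hist4. The pseudogene Hist1h2al, lies 29.4 Mb from the nearest of the others. The symbol picks only a part of the family, because the table writes most histone genes under newer symbols such as H2ac4. By position against GENCODE M21, 66 rows of the table are clustered histone genes, of which 57 carry a newer symbol and serve here as the comparison. A further 4 genes of the GENCODE family (Hist1h2aj, Hist1h2ah, Hist1h2ba and Hist1h2aa) were not analysed here.

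RNA came from wild type mice, from bone under the cartilage of the mandibular condyle (labelled subchondral bone), on the side of the temporomandibular joint that had been operated. The groups were partial discectomy, the removal of part of the joint disc and a surgical model of joint degeneration, and sham operation, with 3 libraries each, all with the age label P6w+PO2w. The table's codes LPD for partial discectomy and Rctrl for sham are not explained, so anything else they stand for goes with the groups. Whether each library is a mouse of its own is not stated, so the spread between them may be technical. How messages were selected for sequencing is not given in the sources used here, which matters for genes whose messages mostly lack a tail. Fewer cells of a type and less RNA per cell cannot be told apart in such bulk samples.

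The values in the authors' deposited table are group means of 1 plus RPM (reads scaled to a common library total), so that 1 is the floor, and they are not scaled to gene length. Library depth was worked out from the step between low values, and was 40192428 to 42583693 reads in partial discectomy libraries and 38521779 to 46799333 in sham libraries. Values of single libraries could not be had for any of the 9 genes. The deposited sum, highest value and geometric mean over the 6 libraries limit what a single library can hold, and these limits are given in their place. A gene was called at a deposited p-value adjusted over all genes (Benjamini-Hochberg) under 0.05. Over all genes 528 were called higher after partial discectomy, which is 2.28%, and 24 lower, which is 0.104%.

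The sequences that bear on the values come first. At 8 of the 9 genes RefSeq gives a start site, and all 8 lie in a block of 50.7 kb, chr13:21786826-21837530 of mm10, that holds no other gene of the table. There, 3 pairs of an H2A and an H2B gene point away from each other and share the DNA between their starts. The gene models of Hist1h2an and Hist1h2bp are 242 bases apart, those of Hist1h2ao and Hist1h2bq 267 and those of Hist1h2ap and Hist1h2br 235. Of the following stretches, 2 lie between such start sites, and the last ends at the start of the H4 gene Hist1h4m. They are from RefSeq (GRCm38.p6, plus strand), read towards the H2B or H4 gene, with capitals for CCAAT and TATAA on either strand.
Hist1h2an and Hist1h2bp, chr13:21787249-21787487: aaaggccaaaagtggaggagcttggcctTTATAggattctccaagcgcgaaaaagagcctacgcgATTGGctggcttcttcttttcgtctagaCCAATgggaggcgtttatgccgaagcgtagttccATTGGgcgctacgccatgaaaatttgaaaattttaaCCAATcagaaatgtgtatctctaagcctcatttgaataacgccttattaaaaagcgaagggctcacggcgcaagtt
Hist1h2ap and Hist1h2br, chr13:21833493-21833742: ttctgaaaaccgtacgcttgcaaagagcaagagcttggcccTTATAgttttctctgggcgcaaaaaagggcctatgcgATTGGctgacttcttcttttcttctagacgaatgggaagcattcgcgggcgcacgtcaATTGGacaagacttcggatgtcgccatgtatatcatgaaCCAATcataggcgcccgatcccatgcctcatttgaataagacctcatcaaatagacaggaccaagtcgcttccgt
Hist1h4m, chr13:21811496-21811745: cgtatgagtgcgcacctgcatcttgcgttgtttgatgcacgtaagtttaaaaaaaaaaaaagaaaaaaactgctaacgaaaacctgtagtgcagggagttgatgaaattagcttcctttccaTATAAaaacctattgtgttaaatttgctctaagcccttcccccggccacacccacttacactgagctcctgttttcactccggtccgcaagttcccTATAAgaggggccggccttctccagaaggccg

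The stretch of Hist1h2an and Hist1h2bp holds 4 CCAAT matches and 1 TATAA match, and that of Hist1h2ap and Hist1h2br holds 3 and 1. In both, the TATAA match reads on the strand of the H2A gene, towards the H2A end of the stretch. The H4 stretch holds 2 TATAA matches, of which the nearer begins 32 bases before the start, and 0 CCAAT matches. Of 32851 RefSeq promoter windows of 300 bases, 37.4% hold CCAAT and 24.9% hold TATAA on either strand. Among the 63 windows of clustered histone genes the shares are 85.7% and 79.4%. The octamer ATTTGCAT, on either strand, is in 0 of the 8 windows, against 22.2% of the clustered histone windows and 1.74% of all windows. These matches describe the letters of the window, and binding was not measured.

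The block is partly a mirror image of itself. The windows of Hist1h2bq and Hist1h2br are the same in 300 of 300 bases. A run of 285 bases is shared by the windows of Hist1h4m and Hist1h4n, and one of 200 bases by those of Hist1h2ao and Hist1h2ap. The coding sequences of each of these 3 copy pairs differ at 0 positions, over 390 bases for H2A, 378 for H2B and 309 for H4. Hist1h2an differs from Hist1h2ao at 5 of 390 coding bases and at 0 of 130 residues, while Hist1h2bp differs from Hist1h2bq at 6 of 378 bases and 2 of 126 residues. All 12 other H4 genes that could be compared encode the same protein as Hist1h4m.

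A read from these genes can therefore often come from more than 1 place. Of all stretches of 50 bases in the GENCODE transcripts of a gene, the share also found in a transcript of another gene was 97.3% for Hist1h2bq, 93.5% for Hist1h2ao and 93.1% for Hist1h2ap. It was 89.8% for Hist1h4m, 88.7% for Hist1h2br, 85.8% for Hist1h2an and 85.6% for Hist1h4n. The lowest shares were 67.6% for Hist1h2al and 44.1% for Hist1h2bp. How reads with several places were assigned is not given in the sources used here. For 0 of the 9 genes did the deposited values come out as whole reads. Of all genes with a mean under 2 above the floor, a range that holds 4 of the 9, whole reads came out for 38.7% of 9547. Each gene's value is thus uncertain where its stretches are found elsewhere, and the sums over copies below do not depend on the split within a pair. These sums can still depend on how reads shared with genes outside the pair were assigned. Stretches of 50 bases were shared with 14 other genes for Hist1h2bq, 48 for Hist1h2ao and 11 for Hist1h4m.

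The 3' stem-loop, the element that Slbp binds, is present after the stop codon in a GENCODE transcript of 5 of the 9 genes. It is shown here because messages that end without a tail carry it. Capitals mark the 16 bases of stem and loop.
Hist1h2ao, chr13:21810898-21810913, plus strand: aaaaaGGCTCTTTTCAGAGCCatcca
Hist1h2bp, chr13:21787923-21787938, plus strand: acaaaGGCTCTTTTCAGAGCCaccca
Hist1h4m, chr13:21812129-21812144, plus strand: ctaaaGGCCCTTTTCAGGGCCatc

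Hist1h2ap has the same 16 bases as Hist1h2ao, and Hist1h4n the same as Hist1h4m, so that 3 genes carry 1 form and 2 the other. The models of Hist1h2an, and the single-exon models of Hist1h2bq and Hist1h2br, end at the stop codon and show no 3' end. Hist1h2bp, Hist1h2bq and Hist1h2br each also have a longer spliced coding model that runs on to a downstream exon, holds no stem-loop and has AATAAA, the signal for a poly(A) tail, near its end. Among the 57 genes under newer symbols, 37 have a stem-loop in a model. The other 20 include genes such as H2bc13 and H2ac13 that span the coding part alone, where no stem-loop could be seen. The split is thus partly one of how far the models run. The median log2 ratio in the authors' deposited table was 1.23 for those 37 and 1.24 for the other 20. Among the 9 genes it was 1.48 for the 5 with a stem-loop and 1.24 for the 4 without, an order that turned to 1.76 and 2.97 with the floor subtracted.

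All 9 genes had a higher mean after partial discectomy than in sham, and 5 of the 9 passed the test. These were Hist1h2an, Hist1h2bq, Hist1h2br, Hist1h4m and Hist1h4n, a count to read against 2.28% called higher over all genes. Hist1h2bq with Hist1h2br, and Hist1h4m with Hist1h4n, are copies with the same coding bases, so the calls within a pair may rest on shared reads. None of the 9 was called lower. At an unadjusted p under 0.05 there were 7 of 9 higher and 0 lower in the authors' deposited table, against 10.9% higher over all genes. The ratio of the partial discectomy mean to the sham mean ran from 1.64 to 3.25 with a median of 2.58 (log2 ratio 1.36), where the median log2 ratio of all genes was 0.08. With the floor subtracted, the means of the 9 genes in the authors' deposited table summed to 66.9 RPM after partial discectomy and 19.7 in sham, which is 3.40-fold. For 8 of the 9 genes the highest library had to be a partial discectomy library, and for 6 of these every partial discectomy library lay above every sham library, which the deposited values show for 3.78% of all genes.

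**Figure D1:**
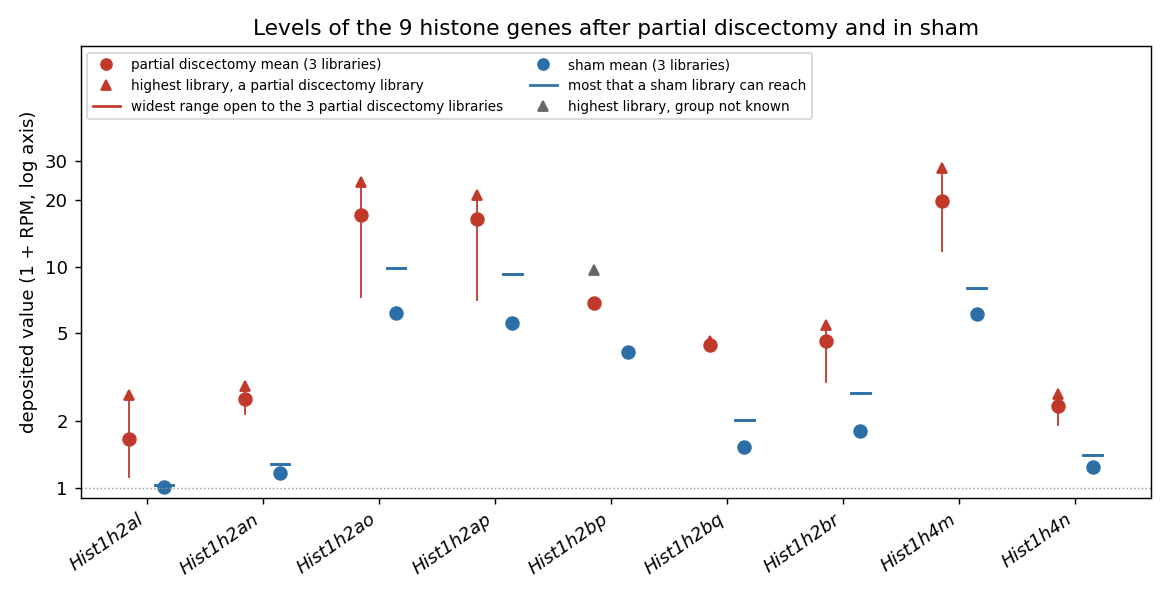
Deposited levels (1 plus RPM, log axis) of the 9 genes after partial discectomy (red) and in sham (blue). Circles are group means, triangles the highest of the 6 libraries, red lines the widest range open to the 3 partial discectomy libraries and blue dashes the most a sham library can reach. The red lines of Hist1h2ao and Hist1h2ap reach below the blue dashes, and that of Hist1h4m ends at 11.8, above 7.97.

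The 2 H4 genes of the block both rose. Hist1h4m averaged 19.9 after partial discectomy, against 6.11 in sham, a 3.25-fold difference with limits (95%) of 2.09 and 5.06 and an adjusted p of 0.0191, the largest difference of the 9 in the authors' deposited table. Its highest partial discectomy library stood at 28.1 and the others between 11.8 and 19.7, while no sham library can exceed 7.97 by the authors' deposited table, so the groups did not overlap. Hist1h4n averaged 2.33 after partial discectomy, against 1.23 in sham, a 1.89-fold difference with limits (95%) of 1.49 and 2.40 and an adjusted p of 0.0184 by the authors' deposited table. Its partial discectomy libraries lay between 1.93 and 2.65 and its sham libraries at 1.40 or lower, again apart, by the limits from the authors' deposited table. The floor takes up much of these values. With it subtracted, the log2 ratios of Hist1h4m and Hist1h4n were 1.88 and 2.51, so that the order of both genes turned. Hist1h2br at 2.19, Hist1h2bq at 2.70, Hist1h2an at 3.24 and Hist1h2al at 6.30 then also stood above Hist1h4m. Hist1h2ao, Hist1h2ap and Hist1h2bp stayed below it, so Hist1h4m had the largest ratio only with the floor kept.

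Per kilobase of transcript and with the floor subtracted, Hist1h4m had 46.9 RPM after partial discectomy, against 12.7 in sham, and its copy Hist1h4n had 3.10 after partial discectomy and 0.544 in sham. The value of Hist1h4m was thus 15.1 times that of Hist1h4n after partial discectomy and 23.4 times in sham, although the coding bases of both are the same. How the reads they share were assigned is not known. A difference in level therefore cannot be told apart from the split of reads. Taken as 1 unit, the H4 pair summed to 20.2 RPM after partial discectomy and 5.35 in sham in the authors' deposited table, floor subtracted, which is 3.78-fold.

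Among the H2A genes, Hist1h2an rose, while the copies Hist1h2ao and Hist1h2ap and the pseudogene Hist1h2al did not pass the test. Which H2A gene passed depended on the genes adjusted over: Hist1h2ap was called over protein-coding genes, and over genes with a mean of at least 1 above the floor, which leaves out Hist1h2an. Hist1h2an averaged 2.53 after partial discectomy, against 1.16 in sham, a 2.18-fold difference with limits (95%) of 1.72 and 2.75 and an adjusted p of 0.0101 by the authors' deposited table. Its partial discectomy libraries lay between 2.15 and 2.89 and no sham library above 1.28, by the limits from the authors' deposited table. Sham libraries were thus near the floor, and the floor-free means were 1.53 after partial discectomy and 0.162 in sham.

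Hist1h2ao averaged 17.2 after partial discectomy, against 6.18 in sham, a 2.78-fold difference with limits (95%) of 1.58 and 4.90 and an adjusted p of 0.0710 by the authors' deposited table. Hist1h2ap averaged 16.4 after partial discectomy, against 5.55 in sham, a 2.95-fold difference with limits (95%) of 1.68 and 5.18 and an adjusted p of 0.0511 by the authors' deposited table. For both, the deposited values leave room for overlap: the lowest partial discectomy library may be as low as 7.31 for Hist1h2ao and 7.08 for Hist1h2ap, and a sham library as high as 9.91 and 9.24. The pair's floor-free sum was 31.6 RPM after partial discectomy and 9.73 in sham, 3.24-fold, by the authors' deposited table. Per kilobase the values of the copies were alike, 33.7 for Hist1h2ao and 31.9 for Hist1h2ap after partial discectomy, and 10.8 and 9.45 in sham. How the reads they share were split is not known, so the level of each gene cannot be told from these values.

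Hist1h2al, annotated by GENCODE as a processed pseudogene of H2A (chr13:51202727-51203065 of mm10, minus strand), lies outside the block and overlaps the gene Gm44341. It averaged 1.66 after partial discectomy, against 1.01 in sham, a 1.64-fold difference with limits (95%) of 1.08 and 2.51 and an adjusted p of 0.357 by the authors' deposited table. A single partial discectomy library at 2.63 held 82.5% of that group's signal above the floor, and the others lay between 1.12 and 1.23, against at most 1.03 in sham, apart but near the floor, by the limits from the authors' deposited table. Without that library the log2 ratio was 0.22, against 0.72 with it.

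Of the H2B genes, the copies Hist1h2bq and Hist1h2br rose and Hist1h2bp was not called. Hist1h2bq averaged 4.44 after partial discectomy, against 1.53 in sham, a 2.90-fold difference with limits (95%) of 2.06 and 4.10 and an adjusted p of 0.0104 by the authors' deposited table. Its partial discectomy libraries were the closest together of the 8 genes with such limits, between 4.14 and 4.59, with sham libraries at 2.02 or lower by the limits from the authors' deposited table. Hist1h2br averaged 4.63 after partial discectomy, against 1.80 in sham, a 2.58-fold difference with limits (95%) of 1.65 and 4.03 and an adjusted p of 0.0359 by the authors' deposited table. Its partial discectomy libraries lay between 3.02 and 5.43 and its sham libraries at 2.69 or lower, so for both genes the groups were apart. As 1 unit, floor subtracted, this pair summed to 7.07 RPM after partial discectomy and 1.33 in sham, 5.33-fold, in the authors' deposited table.

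Hist1h2bp averaged 6.86 after partial discectomy, against 4.09 in sham, a 1.68-fold difference with limits (95%) of 0.909 and 3.09 and an adjusted p of 0.387 by the authors' deposited table. Its highest library, at 9.67, cannot be placed in a group from the authors' deposited table. Hist1h2bp is the gene of the block with the smallest share of stretches found elsewhere, and its partner Hist1h2an, which shares the DNA between their starts, was called. The limits of both ratios overlap, and the difference within this pair was not tested. In the other divergent pairs the ratios were 2.90 for Hist1h2bq beside 2.78 for Hist1h2ao, and 2.58 for Hist1h2br beside 2.95 for Hist1h2ap, in the authors' deposited table. With the floor subtracted these ratios were 6.50 beside 3.13 and 4.55 beside 3.38. For Hist1h2an beside Hist1h2bp the floor-free ratios were 9.46 and 1.90, so likeness within a pair depended on the floor.

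**Figure D2:**
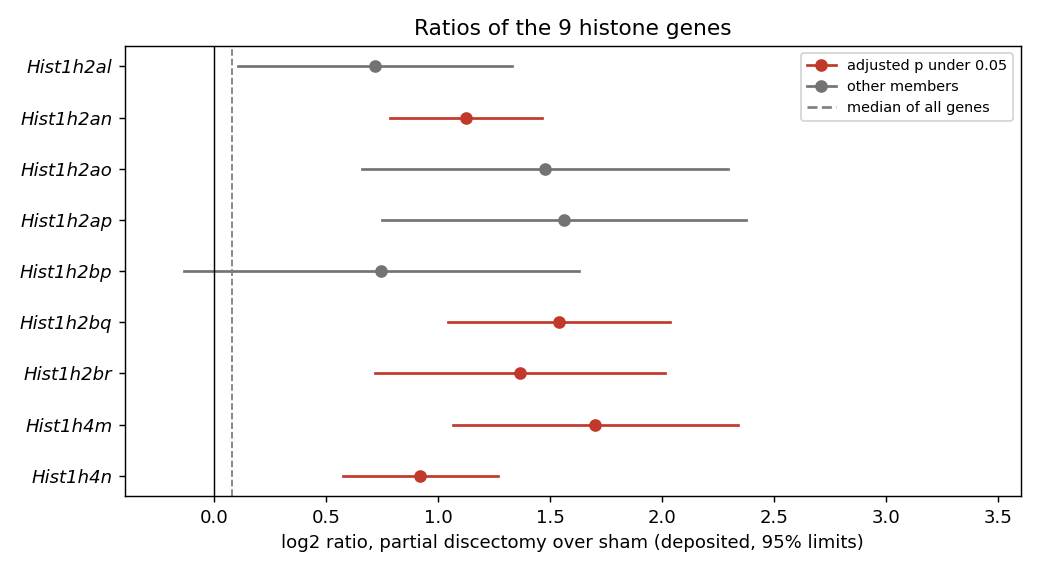
Deposited log2 ratio of partial discectomy over sham with 95% limits for each of the 9 genes, H2A at the top, then H2B and H4. Red marks an adjusted p under 0.05 and the dashed line the median of all genes at 0.08. The limits of Hist1h2bp alone cross 0, at ratios of 0.909 to 3.09.

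**Figure D3:**
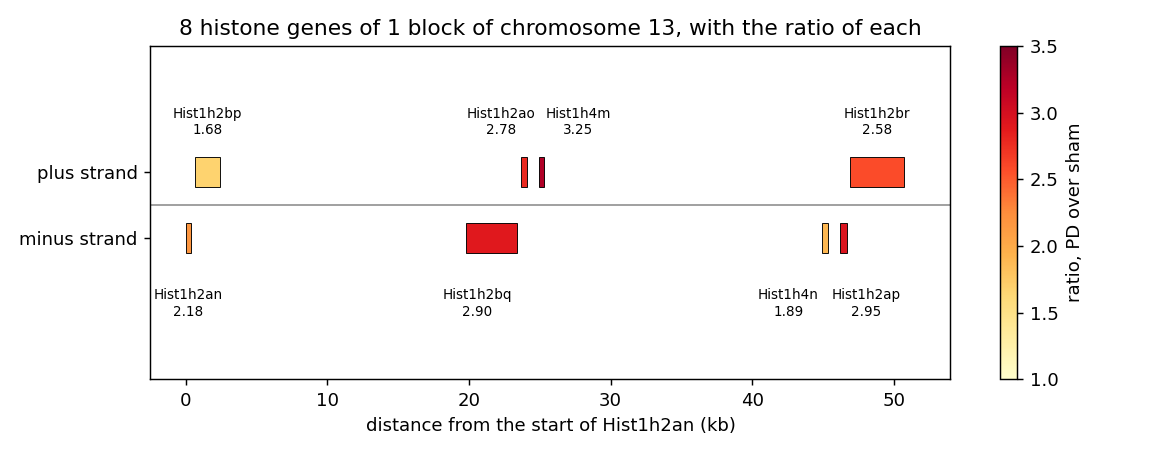
Positions of the 8 genes of the block in kb from the start of Hist1h2an, with genes of the plus strand above and of the minus strand below the line. Colour and the number beside each gene give the ratio of partial discectomy over sham, from 1.68 for Hist1h2bp to 3.25 for Hist1h4m. Genes at mirrored places (Hist1h2bq and Hist1h2br, Hist1h2ao and Hist1h2ap, Hist1h4m and Hist1h4n) have the same coding bases.

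By class, the median log2 ratios of the 9 genes were 1.30 for H2A, 1.36 for H2B and 1.31 for H4 in the authors' deposited table, and the classes held 1 of 4, 2 of 3 and 2 of 2 calls. The floor-free sums of H2A genes were 33.8 RPM after partial discectomy and 9.90 in sham. For H2B genes they were 12.9 after partial discectomy and 4.42 in sham, and for H4 genes 20.2 after partial discectomy and 5.35 in sham. The ratios of these sums were 3.41, 2.93 and 3.78 and were not tested against each other. That of H2B joins unlike floor-free ratios, 5.33 for the pair of Hist1h2bq and Hist1h2br and 1.90 for Hist1h2bp.

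The 57 clustered histone genes under newer symbols were also higher after partial discectomy. Each gene had a higher mean after partial discectomy by the authors' deposited table, 9 were called higher and 0 lower, and at an unadjusted p under 0.05 the numbers were 50 and 0. Their median log2 ratio was 1.23, against 1.36 for the 9, and their floor-free sums were 954 RPM after partial discectomy and 342 in sham, 2.79-fold, in the authors' deposited table. The 9 genes thus held a small share of the family's signal. By class the median log2 ratios were 1.55 for 6 H1 genes, 0.81 for 13 H2A genes, 1.14 for 15 H2B genes, 1.51 for 12 H3 genes and 1.20 for 11 H4 genes. With the floor subtracted they were 1.68 for H1, 1.56 for H2A, 1.41 for H2B, 1.67 for H3 and 1.40 for H4, so the low place of H2A was not kept. By cluster the medians were 1.23 for Hist1, 1.31 for Hist2, 0.75 for Hist3 and 1.24 for the 1 gene of Hist4. With the floor subtracted they were 1.59 for Hist1, 1.41 for Hist2, 4.17 for the 3 genes of Hist3 and 1.55 for Hist4. The 4.17 is the value of H2bu2, whose sham mean was 0.0469 RPM above the floor, and H2bu1-ps had 0.0244 there. H2aw, with 6.37 RPM above the floor in sham, had a floor-free log2 ratio of 0.84. By the ratio of floor-free sums Hist3 stayed lowest, at 1.98 against 2.77 for Hist1, 2.96 for Hist2 and 2.92 for Hist4. The share of calls, 55.6% of the 9 and 15.8% of the 57, was not tested for a difference.

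Single libraries could be read as whole reads for 3 of the 57 genes, all of them linker histones, and chosen here for that reason after their values were seen. H1f1 stood at 25.7, 30.3 and 62.8 RPM in partial discectomy libraries and at 17.0, 5.83 and 6.20 in sham libraries. H1f5 stood at 15.9, 23.1 and 31.0 after partial discectomy and at 10.5, 3.22 and 4.39 in sham. Groups did not overlap for either gene, and for both the sham library of 46799333 reads was the highest of its group. The mitosis gene Ccnb2 had the same high sham library, with 7.16, 7.71 and 12.3 RPM after partial discectomy and 5.13, 2.10 and 2.62 in sham. H1f6, the testis form, stayed at 0.164 or lower in every library.

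Genes of related processes gave few calls, as did all genes, but a larger share of them lay under an unadjusted p of 0.05. Over 5 lists of 93 genes in all, the authors' deposited table called 1 gene higher (1.08%, against 2.28% of all genes) and 0 lower. Of the 93, 38 were higher at an unadjusted p under 0.05 (40.9%, against 10.9% of all genes) and 0 lower. Mitosis genes came nearest to the histone genes in size, with a median log2 ratio of 1.03, 16 of 16 means higher, 14 of them at an unadjusted p under 0.05, and 1 call in the authors' deposited table. That call was Aurka, a mitotic kinase, with 6.52 after partial discectomy against 2.76 in sham, 2.36-fold with an adjusted p of 0.0361 by the authors' deposited table. Ccnb2, Birc5 and Kif11 stood at 2.35, 2.50 and 2.47 times sham by the authors' deposited table, with adjusted p of 0.0701, 0.0710 and 0.0745. For DNA replication genes the median log2 ratio was 0.58 and 30 of 30 means were higher in the authors' deposited table. The 4 with the smallest p there were Rrm2 of nucleotide synthesis (ratio 2.24), Mcm7 (1.74), Mcm2 (2.04) and Pcna (1.63), in the authors' deposited table. None of the 30 was called, and 14 were higher at an unadjusted p under 0.05.

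Histone variant genes outside the clusters had a median log2 ratio of 0.54 over 11 genes in the authors' deposited table. They had 0 calls, and 6 were higher at an unadjusted p under 0.05. H2ax had a ratio of 2.58 (adjusted p = 0.0518), Cenpa of the centromere 2.29, H2az1 1.84 and H2aj 1.51 in the authors' deposited table. Histone chaperones had a median log2 ratio of 0.32 over 21 genes and 0 calls, 2 being higher at an unadjusted p under 0.05. Their named genes Anp32e, Mms22l, Hjurp and Tonsl stood at 1.49, 1.76, 1.35 and 1.44 times sham by the authors' deposited table. Factors that transcribe histone genes or cut their 3' ends lay nearest to all genes, with a median log2 ratio of 0.14 over 15 genes, 0 calls and 2 at an unadjusted p under 0.05. Slbp, which binds the stem-loop shown above, averaged 22.6 after partial discectomy, against 15.2 in sham, a 1.49-fold difference with limits (95%) of 1.07 and 2.07 and an adjusted p of 0.234 by the authors' deposited table. For Cpsf2, Eri1 and Srrt the authors' deposited table gave ratios of 1.39, 1.22 and 1.21.

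**Figure D4:**
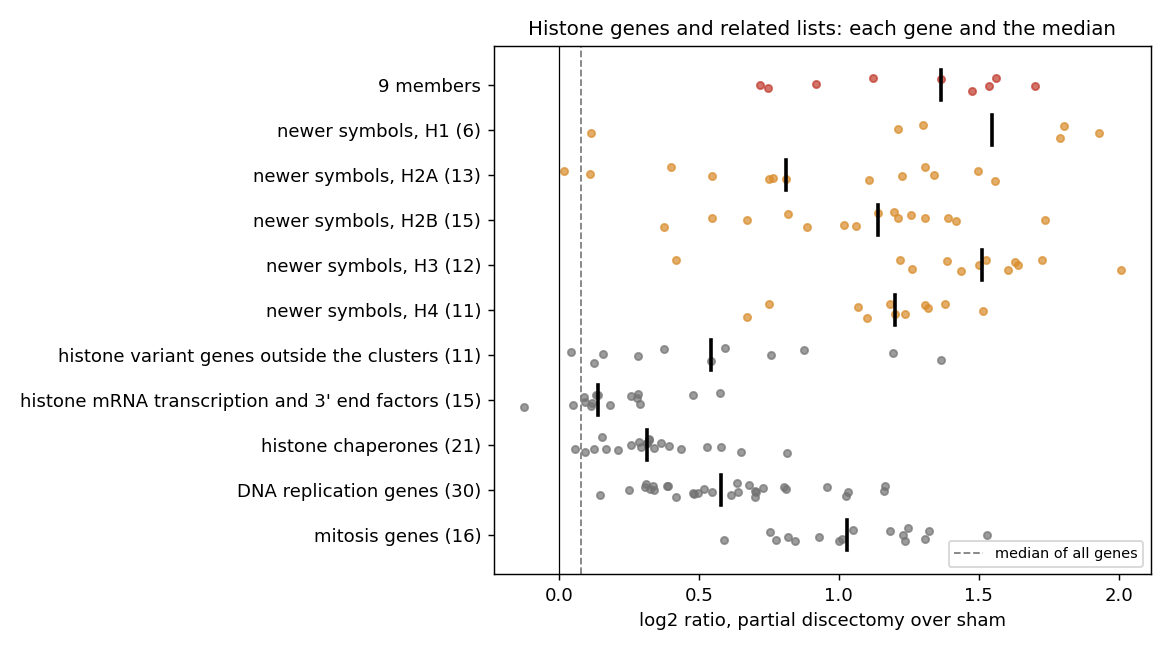
Deposited log2 ratio of partial discectomy over sham for each of the 9 genes (red), the 57 clustered histone genes under newer symbols by class (orange) and 5 related lists (grey), with gene counts in brackets and a black bar at each median. Medians were 1.36 for the 9 genes, 1.03 for mitosis genes and 0.14 for the transcription and 3' end factors, and the dashed line is the median of all genes at 0.08.

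Blood cell markers moved in the same comparison. Of 10 neutrophil markers 10 had a ratio above 1 and 8 were called, with floor-free sums of 1408 RPM after partial discectomy and 105 in sham in the authors' deposited table. Of 9 erythroid markers 9 were above 1 and 7 called, with sums of 416 after partial discectomy and 116 in sham, and of 6 B cell markers 6 were above 1 and 1 called, with sums of 124 after partial discectomy and 44.8 in sham. Of 5 megakaryocyte markers 4 were called, with sums of 36.7 after partial discectomy and 2.82 in sham, and of 4 T and NK cell markers 3, with sums of 8.68 after partial discectomy and 1.21 in sham. Klf1, an erythroid transcription factor picked after its values were seen, had 102, 215 and 188 reads in partial discectomy libraries and 5, 11 and 0 in sham libraries. The sham library of 46799333 reads, the highest of its group for H1f1, H1f5 and Ccnb2, was also the highest for the blood cell markers Camp, Retnlg, Mmp8, Elane, Ppbp and Rag1. It stood at 3.14 RPM for Camp, where the other sham libraries had 0.507 and 0.883, and at 14.9 for Rag1, where they had 3.93 and 0.286. It was not the highest for Klf1, Gp9, Tubb1, C1qa and H1f6. The part of these cells in the histone values was not tested. Bone-forming, cartilage, macrophage and germ cell markers had 0 calls among 6, 3, 3 and 2 genes, and 0 at an unadjusted p under 0.05. Those of bone formation, the labelled tissue, summed to 37654 RPM above the floor after partial discectomy, against 30019 RPM in sham, in the authors' deposited table.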

How the data were processed

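RNA sequencing of 3 partial discectomy and 3 sham libraries was analysed from 1 table that compares both groups over 23170 genes. STAR 2.6.1d and the build mm10 are named in the submitters' processing notes. For the counter, the assignment of reads with several places, the gene filter and the statistical model, a description is not given in the sources used here. The deposited signal columns hold group means, sums and highest values. Their unit was worked out from the values as 1 plus RPM. The deposited ratio is partial discectomy over sham, with its log2, and the signed fold change, a score with 95% limits, was turned into ratios. The deposited adjusted p-value equalled the Benjamini-Hochberg adjustment over all genes. These p-values rest on a model of the authors. No fit of libraries was made, because the deposited columns hold no values of single libraries. A count test was not run because whole reads came out for 38.7% of low genes only.

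Gene positions, names and transcripts were taken from GENCODE M21 and promoter windows from RefSeq, with Python 3.11.15 and pandas 2.3.3. Of the 9 members 8 had a RefSeq window. Of 143 listed genes 141 were in the table, and a marker counted in its list is not reported here by name. Limits for single libraries follow from the sum, highest value and geometric mean of a gene, and were tested on simulated data, as was the recovery of reads. The members and lists were chosen with earlier results of these data known. Named are members by call, cluster, level and ratio, and of each related list the up to 4 genes with the smallest p. A second deposited file held positions and symbols and was not used. Alternatives changed the genes adjusted over, the call rule, the centre, the floor, a minimum mean of 1 or 5 above the floor, and the members. The precision of a value near the floor is limited by depth, and 1 read is worth 0.0214 to 0.0260 RPM.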

Additional observations from a re-analysis of the deposited data

How the results depend on the processing

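The 5 calls among the 9 genes became 1 (Hist1h4m) when p-values were readjusted over genes with a mean of at least 5 above the floor, which leaves 3 of the 9, 8 with the 95% limits above equal means (11.1% of all genes), 8 with the limits above the median ratio of all genes (8.11% of all genes), and 14 of 66 with members taken by GENCODE name. Over genes with a mean of at least 1 there were 4 calls, of which 3 are among the 5: Hist1h2ap was gained, and Hist1h2an and Hist1h4n, whose means lie under 1 above the floor, were not tested. Over protein-coding genes there were 6, the 5 and Hist1h2ap. Taking members by GENCODE name, like leaving out the pseudogene, was chosen after seeing the data. At an unadjusted p under 0.05 the 7 became 3 over genes with a mean of at least 5. The median log2 ratio was 1.36, and 2.19 with the floor subtracted. Under its other alternatives, which include leaving out the highest library, it ran from 1.15 to 1.56. The 9 calls among the 57 genes under newer symbols were 15 over protein-coding genes, 26 at an adjusted p under 0.1, 50 with limits above equal means, 46 above the median ratio and 44 above the ratio of the summed means. The 1 call of the related lists was 2 over genes with a mean of at least 1 and over protein-coding genes, 0 over those with at least 5, 6 at an adjusted p under 0.1, and 38, 33 and 23 under the 3 rules on limits, in the order above. No member was called lower under any of these alternatives. Of all 23170 genes, 1.01% were called higher with a mean of at least 5, 2.21% with at least 1 and 2.45% over protein-coding genes. The share was 3.84% at an adjusted p under 0.1, and 11.1%, 8.11% and 6.71% under the 3 rules on limits, in the order above. Among the genes adjusted over, the calls were 233 of 10286 with a mean of at least 5 and 513 of 15911 with at least 1. They were 567 of 15397 over protein-coding genes, so the shares of all genes given for these 3 settings understate the shares of genes tested. Against the median ratio of all genes 54.9% of all calls by limits were higher, against the summed means 40.8%, and against equal means 75.5%.

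No paired analysis was possible because values per library were not had for these genes, and for the same reason leaving out each replicate in turn was not run. Values near the floor, as for Hist1h2al, Hist1h2an and Hist1h4n in sham, rest on few reads. Copies with the same sequence cannot be told apart by their reads.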
